A study of Homo sapiens with 32 samples.

Results

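The transcript response of the lymphoma line DOHH2 to 6 h of CSKi, which inhibits the tyrosine kinase CSK, was measured by RNA sequencing in 4 libraries. They are 2 libraries of cells treated with 500 nM CSKi (the labels write the unit as nm) and 2 of cells given the vehicle DMSO for 6 h. All 11515 features with a mean log2 value of 5 or more over these 4 libraries were included, of 25066 features in the table. Another 7075 features had no reads in any of the 4 libraries, and 6476 had reads but a lower mean. Just inside the limit stood SLC6A8 (mean 5.0005), LOC100287244 (5.002) and SNORA71C (5.0025), and just outside it LOC100287098, KCNH3 and P2RX2 (each at 4.9975). DOHH2 is an established line of diffuse large B-cell lymphoma of the germinal centre B cell type. Every group used here, vehicle included, carries the same engineering with Cas9 and was grown in the same medium, and no label says that a gene was targeted. The study treated DOHH2 and the line TMD8, of the activated B cell type, in duplicate for 1, 3, 6 and 24 h, which gave 32 libraries. The question asked of the 6 h libraries is which transcripts differ after CSK inhibition.

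Src family kinases such as LYN, BLK and FYN are held in a closed and less active form once CSK has phosphorylated a tyrosine near their C-terminal end. In B cells these kinases phosphorylate the signalling tails of the antigen receptor subunits CD79A and CD79B, which recruits the kinase SYK. LYN also phosphorylates inhibitory receptors such as CD22 and CD72, which recruit the phosphatases SHP-1 (PTPN6) and SHIP1 (INPP5D) and dampen the signal. Receptor signalling through PI3K and AKT keeps FOXO transcription factors out of the nucleus, and FOXO factors in turn drive genes such as RAG1, RAG2 and KLF2 in B lineage cells.

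Depth ranged from 20167525 to 24907030 mapped reads per library. Among the tested features the lowest mean was 26.0 reads per library and the median 755.0 reads, and none was at 0 in any of the 4. Values are the deposited log2 values, and differences are CSKi minus DMSO on that log2 scale, ± the standard error of the limma fit, with n = 2 libraries in each group throughout. The spread came from 12 DOHH2 libraries, those of 1, 3 and 6 h. Duplicates at 6 h correlated across features with r = 0.9972 in DMSO and 0.9968 with CSKi. The labels call them bio replicates and do not say whether they came from separate cultures, so the p-values measure the spread between these libraries. All B cell identity markers except CR2 were detected, with 38375 to 40400 reads in all in DMSO and 40790 to 48622 with CSKi. Of 13 T and NK cell markers 5 had no reads (CD2, GNLY, GZMB, TRAT1 and CD28), and the list summed to 113 and 134 reads in DMSO and 86 to 133 with CSKi. Myeloid markers summed to 1293 to 1306 and 1239 to 1569 reads, most of them from CD33, with S100A8, S100A9 and CD163 at 0. Fibroblast and epithelial markers summed to 179 to 197 and 151 to 195 reads, most of them from PDGFRB. No tested member of these 3 lists was called.

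At 6 h, 829 genes rose and 802 fell with CSKi, which is 7.2% and 6.96% of the features tested and 14.2% together (limma, Benjamini-Hochberg adjusted p under 0.05). Most differences were small. The median was 0.28 among genes that rose and -0.224 among those that fell, and 119 genes rose (1.03%) and 53 fell (0.46%) by at least 1.5-fold, 172 in all (1.49%). In 1628 of the 1631 called genes both CSKi values lay on one side of both DMSO values, as they did in 45.7% of the features that were not called. Without DMSO replicate 1 the count was 1005. With the 4 DOHH2 libraries labelled 24 h added to the fit, 106 genes were called, 38 higher and 68 lower. The duplicates at 24 h correlated with r = 0.9908 in DMSO and 0.987 with CSKi, and the cause of the lower count was not tested.

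**Figure D1:**
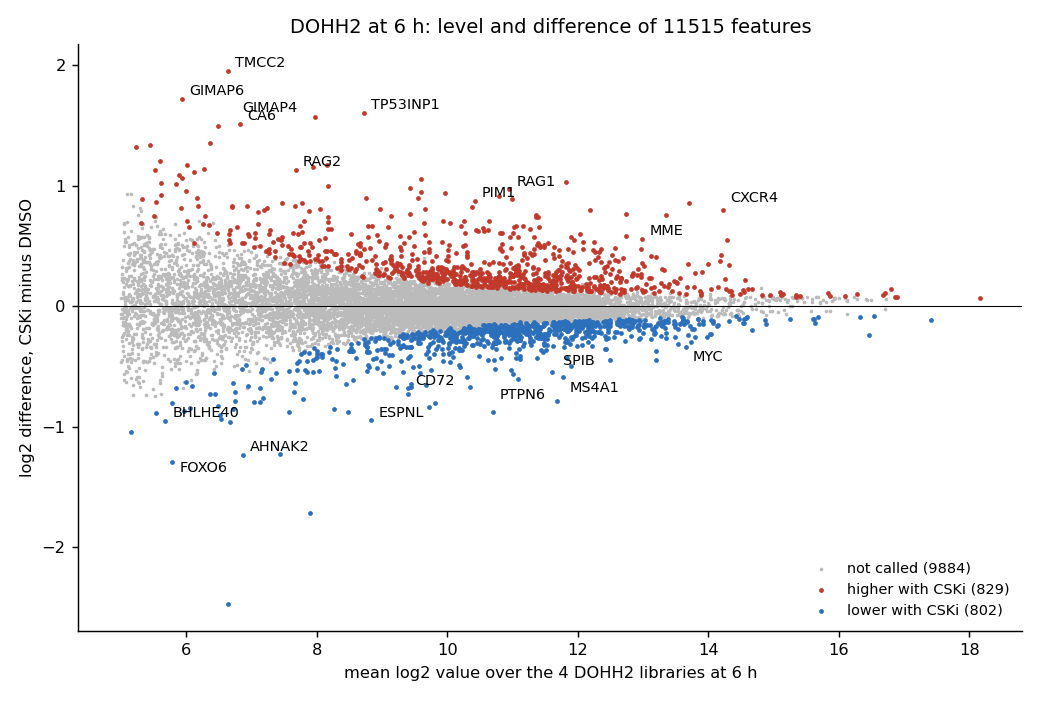
Mean log2 value over the 4 DOHH2 libraries at 6 h (x axis) and log2 difference of CSKi minus DMSO (y axis) for 11515 features, in red for the 829 that rose, in blue for the 802 that fell and in grey for the rest. Large differences lie mostly at low and middle levels, with CXCR4 at 0.80 an exception at a high level, and the lowest point is a feature without a symbol.

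The largest rises were in genes of varied function. TMCC2, which encodes a membrane protein of the endoplasmic reticulum, had log2 values of 5.82 and 5.50 in DMSO and 7.58 and 7.65 with CSKi, from 43 and 35 reads to 180 and 152. That is a 3.88-fold rise (1.96 ± 0.23, adjusted p = 5.92e-07). TP53INP1, a stress protein of autophagy and cell death induced by p53, had 8.06 and 7.77 in DMSO and 9.60 and 9.43 with CSKi. It rose 3.04-fold (1.6 ± 0.10, adjusted p = 3.33e-11), and the groups lay more than 1 log2 unit apart. GIMAP6 and GIMAP4 encode GTPases of lymphocytes that bear on their survival. GIMAP6 had 5.30 and 4.83 in DMSO and 6.82 and 6.76 with CSKi, on 22 to 106 reads, and rose 3.30-fold (1.72 ± 0.21, adjusted p = 1.52e-06). GIMAP4 went from 7.27 and 7.10 to 8.71 and 8.79 (2.96-fold, 1.57 ± 0.12, adjusted p = 5.51e-10). The GIMAP family was looked up after these values were seen. Of the 7 members listed, 4 were tested and 3 rose, with a median of 1.154 over the 4.

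The other 8 of the 12 largest rises ranged from 1.18 to 1.51 on the log2 scale. They were the secreted carbonic anhydrase gene CA6 (1.51 ± 0.15), the thyrotropin receptor gene TSHR (1.5 ± 0.22), C10orf71 (1.36 ± 0.22) and the collagen chain gene COL9A3 (1.34 ± 0.27). The noncoding transcripts DLGAP1-AS1 (1.32 ± 0.28) and RDUR (1.21 ± 0.27), the inflammasome family gene NLRP7 (1.18 ± 0.19) and DEPP1 (1.18 ± 0.10), a FOXO-induced regulator of autophagy, completed them. DLGAP1-AS1 and RDUR may share reads with genes on the opposite strand, since no source used here gives the strand setting of the counting. DEPP1 had 7.50 and 7.63 in DMSO against 8.70 and 8.78 with CSKi. In CA6 the DMSO values went from 7.62 and 7.90 at 1 h to 5.89 and 6.25 at 6 h. Its CSKi values were 7.66 and 7.92 at 1 h and 7.58 in both libraries at 6 h. TSHR went from 7.18 and 6.96 to 6.15 and 5.32 in DMSO, and from 6.87 and 7.47 to 7.25 and 7.22 with CSKi. In TMCC2 the CSKi values themselves went up, from 6.35 and 6.30 at 1 h to 7.58 and 7.65 at 6 h. All 12 kept their call without any 1 of the 4 libraries compared.

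The largest falls with a symbol were in a pseudogene and in regulators of transcription and signalling. PKD1P1, a copy of PKD1 whose reads can be shared with the other copies, had 8.66 and 8.83 in DMSO and 6.32 and 7.75 with CSKi, so that its CSKi libraries differed by more than 1 log2 unit (-1.71 ± 0.31, and -2.43 to -0.998 with 1 library left out), and its call was lost without the trend in the spread, with a robust fit of that trend and with no filter on low values. FOXO6, a forkhead transcription factor gene, had 6.46 and 6.39 in DMSO and 5.18 and 5.10 with CSKi (2.44-fold lower, -1.29 ± 0.22, adjusted p = 0.000154). The scaffold protein gene AHNAK2 had 7.45 and 7.50 against 6.04 and 6.45 (-1.23 ± 0.19). KIAA1671 had 8.06 and 8.04 against 7.02 and 6.63 (-1.22 ± 0.13). The naming rule took only genes whose groups do not overlap.

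BHLHE40, a repressor induced when lymphocytes are activated, had 6.10 and 6.20 in DMSO and 5.30 and 5.10 with CSKi (-0.95 ± 0.20, adjusted p = 0.00143). ESPNL had 9.21 and 9.40 against 8.42 and 8.29 (-0.95 ± 0.08, adjusted p = 5.76e-09). Other large falls were in the Notch ligand gene DLL3 (-0.96 ± 0.19), the corepressor gene CBFA2T3 (-0.94 ± 0.17), the thrombin receptor gene F2RL3 (-0.90 ± 0.17) and the microtubule protein gene MAP1A (-0.88 ± 0.13). GPSM1, a modulator of G protein signalling (-1.04 ± 0.25), and INKA2, an inhibitor of the kinase PAK4 (-0.89 ± 0.25), were called too. Both calls were lost without DMSO replicate 1 or CSKi replicate 2 (adjusted p up to 0.0753 and 0.283), and INKA2 then lay between -1.25 and -0.53. A feature without a symbol fell further than any of these.

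The transcripts of CSK and of the Src family kinases changed little. CSK itself had 13.25 and 13.30 in DMSO and 13.03 and 13.11 with CSKi, a 1.15-fold fall (-0.20 ± 0.04, adjusted p = 0.000555), a call lost without the trend in the spread. LCK, a Src family kinase best known from T cells, had 9.71 and 9.73 against 9.23 and 9.20 (1.42-fold lower, -0.51 ± 0.07). BLK, a kinase specific to B cells, had 12.49 and 12.58 against 12.77 and 12.76 (1.17-fold higher, 0.23 ± 0.04). LYN had 12.08 and 12.06 against 12.18 and 12.22 (1.10-fold higher, 0.13 ± 0.04). The call of LYN was lost whichever of the 4 libraries was left out (adjusted p up to 0.152). FGR (-0.31 ± 0.14, adjusted p = 0.146), FYN (0.13 ± 0.08, adjusted p = 0.321) and SRC (-0.06 ± 0.32, adjusted p = 0.938) were not called. SRC lay between -0.25 and 0.14 and FGR between -0.43 and -0.20 with 1 library left out. Of 13 genes of CSK, the family and its adaptors tested, 3 rose and 2 fell (38.5% called, against 14.2% over all features). Leaving out any of the 4 libraries left 1 that rose.

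Inhibitory receptors and phosphatases of B cells fell more often than they rose, and components of the antigen receptor pathway moved both ways. Of 24 inhibitory genes tested 8 fell and 4 rose (50% called, median -0.127, against 14.2% and -0.002 over all features). CD72, an inhibitory coreceptor, had 9.67 and 9.81 in DMSO and 9.02 and 9.10 with CSKi (1.6-fold lower, -0.68 ± 0.07, adjusted p = 2.02e-07). PTPN6, the phosphatase SHP-1, had 11.38 and 11.39 against 10.66 and 10.90 (1.52-fold lower, -0.61 ± 0.05, adjusted p = 6.43e-09). The adaptors SIT1 (-0.56 ± 0.07) and DOK3 (-0.27 ± 0.03) fell as well. INPP5D, the phosphatase SHIP1, went the other way, from 12.999 and 13.001 in DMSO to 13.20 and 13.28 with CSKi (0.24 ± 0.03). LAIR1, a collagen receptor with inhibitory motifs, stood at 0.53 ± 0.13, a call lost without DMSO replicate 2 or CSKi replicate 1 (adjusted p up to 0.147).

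Of 26 components of the antigen receptor pathway 6 rose and 4 fell (38.5% called, against 14.2% over all features, median -0.004). Without DMSO replicate 1, 3 rose. SYK, the kinase that binds the phosphorylated receptor, had 13.86 and 13.79 in DMSO and 14.16 and 14.20 with CSKi (1.28-fold higher, 0.35 ± 0.03, adjusted p = 7.22e-09). PIK3CD, the PI3K catalytic subunit of leukocytes, rose as well (0.29 ± 0.04). LAT2, an adaptor of the pathway, had 11.06 and 10.94 against 10.46 and 10.48 (1.44-fold lower, -0.52 ± 0.05, adjusted p = 1.21e-08). The 2 receptor subunits moved in opposite directions. CD79B had 13.14 and 13.18 in DMSO and 13.40 and 13.53 with CSKi (0.30 ± 0.04), and CD79A had 12.85 and 12.88 against 12.53 and 12.63 (-0.29 ± 0.04).

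B cell identity and germinal centre genes were called often, in both directions. Of 9 identity markers tested 5 rose and 3 fell (88.9% called, against 14.2% over all features, median 0.131). MS4A1, which encodes the surface antigen CD20, had 12.04 and 12.09 in DMSO and 11.53 and 11.42 with CSKi (1.5-fold lower, -0.59 ± 0.04, adjusted p = 3.18e-10). PAX5, the transcription factor that maintains B cell identity, had 12.31 and 12.28 against 12.61 and 12.72 (1.29-fold higher, 0.37 ± 0.04). Of 25 germinal centre genes 11 rose and 5 fell (64% called, median 0.097). The count of fallen genes was 3 without DMSO replicate 1, DMSO replicate 2 or CSKi replicate 2. MME, the surface peptidase CD10, had 12.74 and 12.67 against 13.30 and 13.24 (1.48-fold higher, 0.56 ± 0.04, adjusted p = 3.62e-11). The E protein gene TCF3 (0.43 ± 0.03), GCSAM (0.41 ± 0.03), a signalling adaptor of germinal centre B cells, and the repressor gene BACH2 (0.37 ± 0.03) rose. SPIB, an ETS family transcription factor, had 11.88 in both DMSO libraries and 11.29 and 11.38 with CSKi (1.46-fold lower, -0.55 ± 0.04, adjusted p = 3.79e-10). In each of these genes the 4 libraries fell into 2 groups without overlap, as in 99.8% of called genes.

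**Figure D2:**
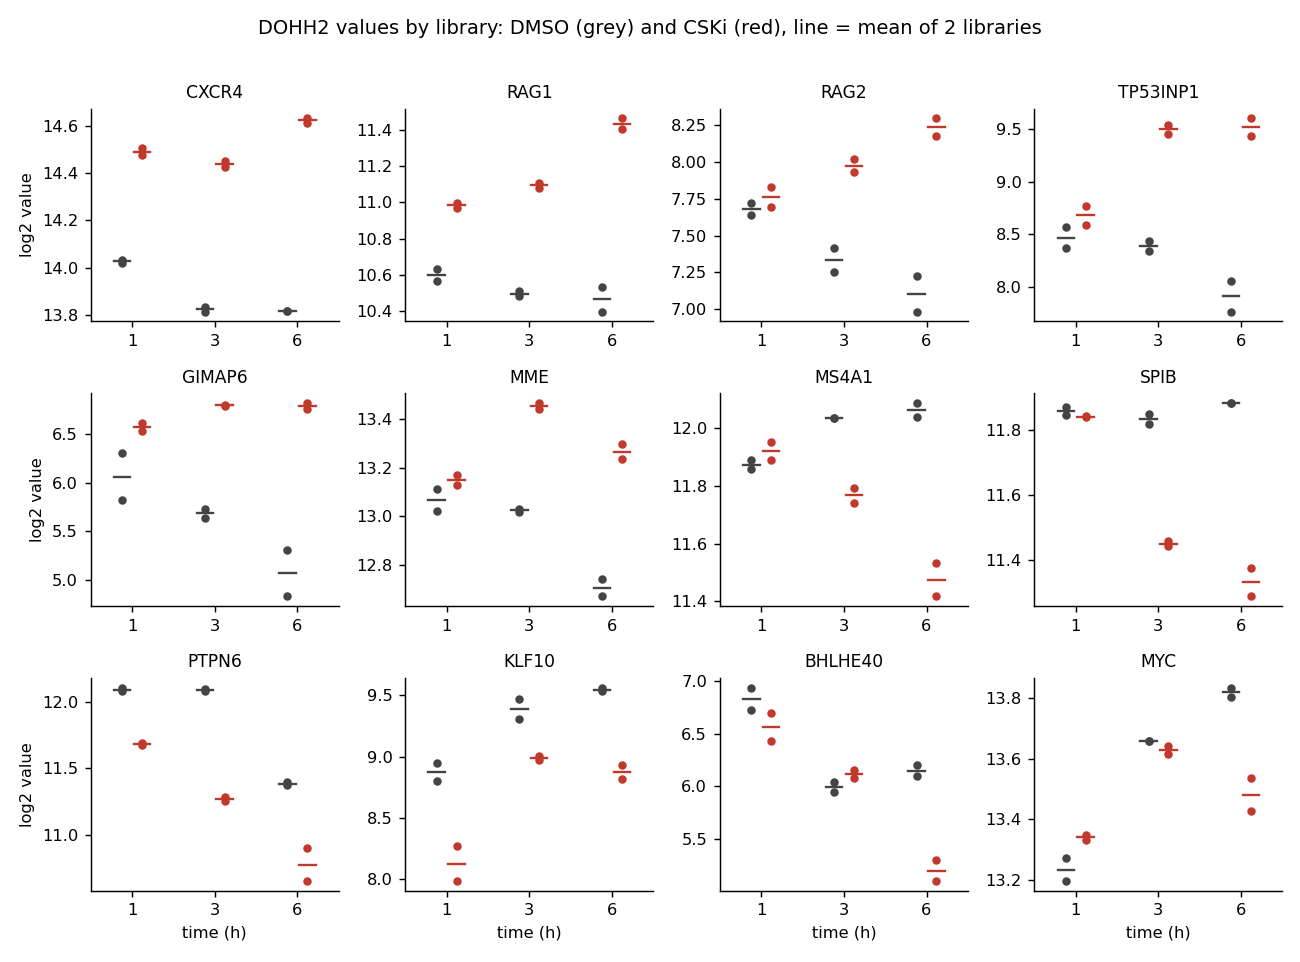
Log2 values of 12 genes in each DOHH2 library at 1, 3 and 6 h (x axis), with DMSO in grey, CSKi in red and a line at the mean of 2 libraries. At 6 h both CSKi points lie above both DMSO points in the first 6 panels and below them in the other 6, and in BHLHE40 and MYC the points of the treatments lie close together at 3 h.

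Genes that FOXO factors induce and genes of quiescence rose together. Of 34 tested 18 rose and 2 fell (58.8% called, against 14.2% over all features, median 0.217). Of the 34 differences 30 were above 0. Without any 1 of the 4 libraries 13 to 15 rose. RAG1, a subunit of the recombinase that assembles antigen receptor genes, had 10.53 and 10.40 in DMSO and 11.47 and 11.41 with CSKi (1.96-fold higher, 0.97 ± 0.05, adjusted p = 1.01e-12). Its partner RAG2 had 6.98 and 7.23 against 8.30 and 8.18 (2.20-fold higher, 1.13 ± 0.13, adjusted p = 3.02e-07). Both CSKi values lay above both DMSO values in both genes, and 99.8% of called genes had no overlap. HBP1, a repressor of cell cycle genes, rose from 9.64 and 9.75 to 10.44 and 10.33 (0.69 ± 0.06). The cyclin-like gene CCNG2 (0.61 ± 0.06) and BTG1, an antiproliferative gene (0.40 ± 0.05), rose too. KLF2, a quiescence factor named after its value was seen, had 5.21 and 5.46 in DMSO and 6.18 and 6.51 with CSKi (1.01 ± 0.23). The members that fell were KLF13 (-0.28 ± 0.05) and BTG2 (-0.13 ± 0.04), a sister gene of BTG1, both named after their values were seen. FOXO6, which is not on the list, fell as given above.

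Promoters of members of this list, taken from RefSeq on GRCh38.p14, were searched for the letters GTAAACA on both strands, the core that forkhead factors bind. Promoters span 250 bases before to 50 after the first start site listed, and 32 of the 34 members had one. The motif was present in 6 of the 32 (18.8%), in 2.23% of the 8983 features tested that had a promoter and in 3.41% of all 27305 genes of the promoter table. The 6 were FOXO4, BTG1, TXNIP, TRIB2, HBP1 and YPEL3, and all but TXNIP (0.05 ± 0.05, adjusted p = 0.557) rose. The 6 are named for the match. Over the whole list 18 of the 34 tested rose. A promoter was at hand for 660 of the 829 genes that rose (79.6%), 645 of the 802 that fell (80.4%) and 78.0% of all features tested. The motif was in 4.7% of the 660 and in 1.55% of the 645, and genes without a promoter are not counted in these shares. The 250 bases before the start site of HBP1, BTG1 and DEPP1 are shown because these genes rose and hold the motif, which the capitals mark on either strand. DEPP1 is not a member of the list and is not counted in the 6 of 32. The motifs were chosen with earlier results known, and 5 were searched in all, among them the octamer ATGCAAAT, the heat shock letters GAANNTTC and the ETS letters CCGGAAGT. The octamer was in 14.3% of 21 germinal centre promoters against 1.25% of those tested, the heat shock letters in 31.2% of 16 heat shock promoters against 4.5%, and the ETS letters in 18.2% of the 33 ribosome biogenesis promoters against 10.0%. A match is a description of the letters, and binding was not measured. A list named for a factor or response may hold its motif by that choice. Such a share therefore does not test the differences at 6 h.
HBP1 (chr7:107168753-107169002, + strand): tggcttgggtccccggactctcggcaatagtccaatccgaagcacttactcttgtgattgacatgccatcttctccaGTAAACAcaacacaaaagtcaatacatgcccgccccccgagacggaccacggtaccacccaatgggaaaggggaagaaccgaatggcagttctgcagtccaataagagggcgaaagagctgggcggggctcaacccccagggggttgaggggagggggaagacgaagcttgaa
BTG1 (chr12:92145847-92146096, - strand): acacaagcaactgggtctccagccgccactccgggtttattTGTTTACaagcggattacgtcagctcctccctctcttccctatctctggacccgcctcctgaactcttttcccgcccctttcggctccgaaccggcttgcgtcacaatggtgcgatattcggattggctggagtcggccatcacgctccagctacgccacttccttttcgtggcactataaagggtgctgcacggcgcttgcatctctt
DEPP1 (chr10:44978810-44979059, - strand): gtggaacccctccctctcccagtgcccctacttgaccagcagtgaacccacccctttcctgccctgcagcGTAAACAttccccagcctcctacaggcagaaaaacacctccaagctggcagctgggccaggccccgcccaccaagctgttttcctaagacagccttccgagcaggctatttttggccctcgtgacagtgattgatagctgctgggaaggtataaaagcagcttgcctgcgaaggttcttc
The match begins 173 bases before the start site in HBP1, 209 in BTG1 and 180 in DEPP1.

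Receptors of cell migration and adhesion included the gene with the smallest p of all features. CXCR4, the chemokine receptor that guides B cells to stroma and to the dark zone of germinal centres, had 13.82 in both DMSO libraries and 14.61 and 14.63 with CSKi. It rose 1.75-fold (0.80 ± 0.03, adjusted p = 3.82e-16), and the groups did not overlap, as in 99.8% of called genes. Of 27 migration receptor and RGS genes tested 7 rose and 2 fell (33.3% called, against 14.2% over all features, median 0.007). The integrin genes ITGA4 (0.47 ± 0.05) and ITGB1 (0.20 ± 0.03), which together form VLA-4, rose. RGS2, which shortens G protein signals, rose (0.52 ± 0.08), and RGS19 fell from 11.21 and 11.26 to 10.68 and 10.74 (-0.53 ± 0.05). Of 28 actin and cytoskeleton genes 6 fell and 3 rose (32.1% called, median -0.029). ABI1, of the WAVE complex, rose (0.45 ± 0.04), and so did RHOH (0.27 ± 0.04), while MYO1G (-0.29 ± 0.05, -0.39 to -0.19 with 1 library left out) and TMSB4X (-0.15 ± 0.03) fell. Without CSKi replicate 1, 2 genes of this list fell.

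Immediate early genes leaned lower, with 6 of the 20 tested fallen and 3 risen (45% called, median -0.134). Other targets of receptor signalling moved in both directions. KLF10 had 9.53 and 9.56 in DMSO and 8.93 and 8.82 with CSKi (1.59-fold lower, -0.67 ± 0.09, adjusted p = 1.09e-05). MYC had 13.81 and 13.83 against 13.43 and 13.54 (1.26-fold lower, -0.34 ± 0.04, adjusted p = 1.06e-07). IER5 (-0.36 ± 0.06) and the AP-1 subunit gene JUNB (-0.31 ± 0.06) fell. EGR2, a zinc finger factor induced by the receptor, had 4.72 and 5.28 in DMSO and 5.61 and 5.53 with CSKi, on 20 to 46 reads (0.58 ± 0.20, adjusted p = 0.0554). Its difference was 0.30 without DMSO replicate 1 (adjusted p up to 0.494 with 1 library left out) and 0.85 without DMSO replicate 2. Of 28 NF-kB target genes 3 rose and 3 fell (median 0.002), which is 21.4% called against 14.2% over all features. The inhibitor gene NFKBIE (-0.35 ± 0.06) and GADD45B (-0.51 ± 0.09) were among those that fell. No NF-kB target rose without DMSO replicate 1, and 1 rose without CSKi replicate 2. Of 6 ERK feedback genes tested 1 rose, SPRED2 (0.60 ± 0.13), and 1 fell, DUSP2 (-0.37 ± 0.12), which is 33.3% of them. The call of SPRED2 was lost without DMSO replicate 2 or CSKi replicate 2 (adjusted p up to 0.0742), and that of DUSP2 without any of the 4 but CSKi replicate 2 (adjusted p up to 0.268, -0.50 to -0.25). Of 6 cytokine and chemokine genes tested 1 rose, IL16 (0.30 ± 0.05), which is 16.7% and near the 14.2% of all features.

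Calcium and activation genes moved in both directions. The share called was 30.4% of NFAT and calcium genes and 31.8% of activation surface genes, against 14.2% over all features. It was 29.4% of plasmablast and activated B cell genes and 23.5% of STAT3 and SOCS genes. Of 23 NFAT and calcium genes 4 rose and 3 fell (median 0.014). STIM2, a sensor of calcium in the endoplasmic reticulum, rose from 11.12 and 11.16 to 11.67 and 11.63 (0.51 ± 0.04), and ATP2A3, the SERCA3 pump that refills that store, fell from 13.41 and 13.44 to 12.92 and 13.03 (-0.44 ± 0.04). Without DMSO replicate 1 or CSKi replicate 2, 1 gene of this list fell. Of 22 activation surface genes 3 rose and 4 fell (median -0.020). SLAMF6 (0.54 ± 0.06) and the early activation antigen CD69 (0.59 ± 0.07) rose, and the transferrin receptor TFRC fell (-0.25 ± 0.05). Without DMSO replicate 1 or CSKi replicate 1, 2 genes of this list fell. CD69 had 8.67 and 8.59 in DMSO against 9.23 and 9.21 with CSKi. Of 17 genes of plasmablasts and activated B cells 2 rose and 3 fell (median -0.116), and of 17 STAT3 and SOCS genes 3 rose and 1 fell (median 0.049). Without DMSO replicate 2 or CSKi replicate 1, 1 plasmablast gene rose and 1 fell. Both lists hold PIM1, a survival kinase, which had 9.99 and 9.97 against 10.77 and 10.94 (1.83-fold higher, 0.87 ± 0.06, adjusted p = 7.07e-11). The kinase gene JAK1 rose as well (0.45 ± 0.04).

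Ribosome biogenesis genes fell together, by small amounts. Of 41 tested 27 fell and none rose (65.9% called, against 14.2% over all features, median -0.166). All 41 differences were below 0, and the list ranged from -0.32 to -0.03. The largest fall was in RRP9, which processes ribosomal RNA, from 11.67 and 11.61 to 11.26 and 11.38 (1.25-fold, -0.32 ± 0.05, adjusted p = 2.57e-05). The coactivator gene PPRC1 (-0.30 ± 0.04), the helicase gene DDX21 (-0.26 ± 0.03) and the RNA methyltransferase gene NOP2 (-0.25 ± 0.04) fell too. The count of fallen members was 15 without DMSO replicate 1. Of 29 genes of the MYC network and of growth 8 fell and 4 rose (41.4% called, median -0.042). Among those that fell was ODC1, the first enzyme of polyamine synthesis (-0.20 ± 0.03). Cytosolic ribosomal protein genes moved the other way, with 10 of 32 risen and none fallen (31.2% called, median 0.071). The elongation factor gene EEF2 on that list had 0.14 ± 0.03. Only 3 of the 32 rose without DMSO replicate 2 or without CSKi replicate 2, and the call of EEF2 was lost after quantile normalization and without the trend.

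Promoters of the ribosome biogenesis genes were searched for CACGTG, the E-box that MYC and its partner MAX bind, whose letters read the same on both strands. Of 33 members with a promoter, out of 41, 14 held it (42.4%), against 10.8% of the 8983 features tested that had a promoter and 7.43% of all 27305 genes. The E-box was also in 18.1% of the 645 promoters of genes that fell and in 9.85% of the 660 of genes that rose. It was in 9.76% of the 41 promoters at hand for the 53 genes that fell at least 1.5-fold. Of the 14 members 9 fell, beside 27 of the 41 on the whole list (65.9%). The promoters of IPO4, an importin that carries ribosomal proteins (-0.17 ± 0.04), and UTP4, of the complex that processes the small subunit RNA (-0.14 ± 0.04), are shown with the E-box in capitals because both genes fell and hold it just before the start site. They were chosen for that position.
IPO4 (chr14:24188817-24189066, - strand): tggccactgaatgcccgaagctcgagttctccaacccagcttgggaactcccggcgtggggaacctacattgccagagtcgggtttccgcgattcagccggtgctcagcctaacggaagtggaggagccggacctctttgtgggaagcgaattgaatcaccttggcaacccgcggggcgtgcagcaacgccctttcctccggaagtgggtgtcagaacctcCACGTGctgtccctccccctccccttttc
UTP4 (chr16:69132399-69132648, + strand): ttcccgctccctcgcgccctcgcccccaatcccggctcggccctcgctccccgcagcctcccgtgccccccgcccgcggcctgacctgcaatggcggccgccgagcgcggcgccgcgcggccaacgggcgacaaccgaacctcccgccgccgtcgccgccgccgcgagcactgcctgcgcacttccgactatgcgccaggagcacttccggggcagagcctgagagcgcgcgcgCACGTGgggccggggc
The match begins 29 bases before the start site in IPO4 and 16 in UTP4. In the 5 promoters printed here the forkhead motif and the E-box shared 0 bases.

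Chaperone genes of the cytosol and of the endoplasmic reticulum fell as well. Of 26 unfolded protein response genes 12 fell and 1 rose (50% called, against 14.2% over all features, median -0.148). Without CSKi replicate 1, 6 fell. The chaperone gene HSPA5 had 13.51 and 13.45 in DMSO and 13.19 and 13.24 with CSKi (1.20-fold lower, -0.26 ± 0.04, adjusted p = 1.06e-05), and HSP90B1 (-0.21 ± 0.04) and CALR (-0.19 ± 0.03) fell. EDEM1, which routes misfolded proteins to degradation, went the other way, from 12.78 and 12.69 to 13.26 and 13.16 (0.47 ± 0.04, adjusted p = 5.0e-09). Of 17 heat shock genes 9 fell, none rose and all 17 were below 0 (52.9% called, median -0.139), and 5 fell without DMSO replicate 1. HSPA8 had 16.60 and 16.55 against 16.36 and 16.32 (-0.24 ± 0.03), and HSPH1 was lower than DMSO too (-0.23 ± 0.04). At 1 h HSPA8 had stood at 15.16 and 15.10 in DMSO and at 15.06 in both CSKi libraries. HSPH1 had stood at 13.29 in both DMSO libraries and at 13.36 and 13.35 with CSKi. Both genes were thus higher at 6 h than at 1 h in both arms, and less so with CSKi.

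Metabolic genes were called less evenly. Of 28 glycolysis and hypoxia genes 9 fell and 2 rose (39.3% called, median -0.086). Without CSKi replicate 1 there were 5 that fell and none that rose. Without DMSO replicate 2, 1 rose. The hexokinase gene HK2 fell from 12.39 and 12.37 to 12.07 and 12.03 (-0.33 ± 0.04), as did the lactate transporter gene SLC16A1 (-0.36 ± 0.05). Of 33 ATF4 and amino acid response genes 5 fell and 2 rose (21.2% called, median -0.026). The amino acid transporter genes SLC7A5 (-0.38 ± 0.04) and SLC1A5 (-0.27 ± 0.04) were among those that fell. This list had 3 fallen genes without DMSO replicate 1. Of 34 cholesterol and fatty acid synthesis genes 1 was called, FASN (-0.24 ± 0.04), which is below the 14.2% of all features.

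Genes of p53, cell death and the cell cycle were called at shares from 12.5% of BCL2 family genes to 40.0% of p53 target and of histone genes, against 14.2% over all features. Of 20 p53 target genes 5 rose and 3 fell (median 0.065). GADD45A, a stress sensor, had 10.26 and 10.19 in DMSO and 10.92 and 10.83 with CSKi (0.65 ± 0.06), and MDM2, the ligase of p53, rose (0.42 ± 0.05). CDKN1A, the cell cycle inhibitor p21 and a classic p53 target, had 8.69 and 8.60 against 8.20 and 8.13 (-0.48 ± 0.10). With DMSO replicate 1 or CSKi replicate 2 left out, 3 p53 target genes rose. Of 16 BCL2 family genes 2 rose, the death activators PMAIP1 (0.38 ± 0.04) and HRK (0.54 ± 0.11), and none fell. Of 37 DNA replication and G1/S genes 9 rose and none fell (median 0.073), with E2F8 at 0.24 ± 0.05 and MCM6 at 0.14 ± 0.03, and 4 rose without DMSO replicate 2 or CSKi replicate 2. Of 35 mitosis genes 5 rose and 1 fell (median -0.014), led by the phosphatase gene CDC25C (0.57 ± 0.08), and 2 rose without DMSO replicate 2. Of 10 histone genes 3 rose and 1 fell, and the linker histone gene H1-10 stood at 0.69 ± 0.07. Only 1 histone gene rose without DMSO replicate 1 or CSKi replicate 1.

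Antigen presentation and interferon genes had few calls. Of 17 MHC class II genes 3 fell (17.6%, against 14.2% over all features), and all 3 calls were lost without DMSO replicate 2 or without CSKi replicate 1. The invariant chain gene CD74 stood at -0.11 ± 0.04, and at -0.17 to -0.04 with 1 library left out. Of 32 interferon response genes 2 rose, STAT2 (0.32 ± 0.05) and IFI27 (0.50 ± 0.16), which is 6.25% of them, and the list's median was 0.121. The call of IFI27 was lost without any of the libraries but CSKi replicate 1 (adjusted p up to 0.4), with a difference of 0.27 without CSKi replicate 2 and 0.74 without CSKi replicate 1. Without CSKi replicate 1, 6 genes of the list rose. The mitochondrially encoded genes had no match in the table by name.

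**Figure D3:**
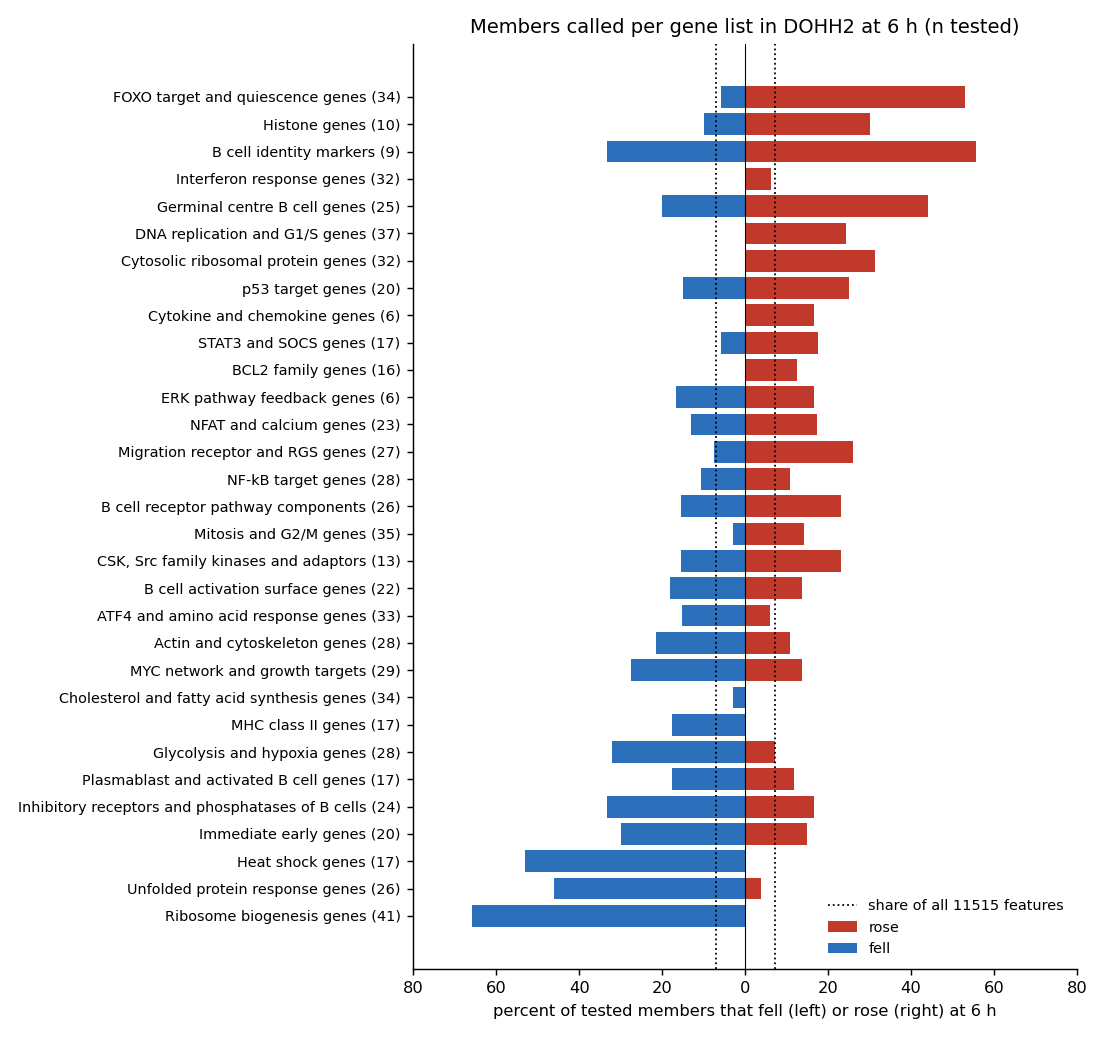
Share of tested members of each gene list that rose (red, right) or fell (blue, left) in DOHH2 at 6 h, in percent, with the number tested in parentheses, for lists with at least 5 tested members, ordered by their median difference. The marker lists of other cell types had fewer and are left out. Dotted lines mark the shares over all 11515 features, 7.2% higher and 6.96% lower, and ribosome biogenesis genes at the bottom and FOXO target and quiescence genes at the top stand far from them on 1 side.

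The response at 6 h was set against those of the same line at 1 and 3 h, each with its own DMSO libraries. At 3 h 1748 genes were called (15.2%) and at 1 h 243 (2.11%). Of the 829 genes that rose at 6 h, 416 had also risen at 3 h, which is 50.2% of them and 47.9% of the genes risen at 3 h. Of the 802 that fell, 310 had fallen at 3 h, 38.7% and 35.3% of the 2 sets. Another 16 and 5 were called the opposite way at 3 h. Pearson's r across the 11515 features was 0.459 between the differences at 6 and 3 h and 0.154 between those at 6 and 1 h, as a description over genes, which are not independent. The change of the response from 3 to 6 h passed the test in 260 genes (2.26%), 163 with a higher value at 6 h and 97 with a lower one, and that from 1 to 6 h in 711 (6.17%). The count of 260 lay between 116 and 333 with 1 library left out, lowest without DMSO replicate 2 of 3 h, and the count of 711 between 381 and 860, lowest without DMSO replicate 1 of 6 h. With the 24 h libraries added they were 2 and 16.

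TMEM52B, PITPNM2 and GLYATL2 were among the genes whose response at 6 h exceeded that at 3 h by most. Each was below 0 at 3 h. At 6 h TMEM52B was called (0.84 to 1.29 with 1 library left out), and PITPNM2 and GLYATL2 were not. TMEM52B had a difference of -0.34 at 3 h and 1.06 at 6 h (6 h minus 3 h 1.40 ± 0.33, adjusted p = 0.02). PITPNM2, a lipid transfer protein gene, had -0.68 at 3 h and 0.28 at 6 h (0.96 ± 0.19, adjusted p = 0.00574), and GLYATL2, an acyltransferase gene, had -0.58 and 0.21 (0.80 ± 0.12, adjusted p = 0.000497). In the other direction, the activation-induced genes BHLHE40 and SIK1 stood at 0.13 and 0.06 at 3 h and at -0.95 and -0.55 at 6 h (-1.07 ± 0.28 and -0.61 ± 0.14). ESPNL went from -0.19 to -0.95 (-0.76 ± 0.12), and KCNN3, a potassium channel gene, from 0.06 to -0.77 (-0.83 ± 0.17).

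Of the genes described above, MYC and MS4A1 were lower at 6 h than at 3 h in response. MYC stood at 0.11 at 1 h, -0.03 at 3 h and -0.34 at 6 h (6 h minus 3 h -0.31 ± 0.05, adjusted p = 0.000771), while its DMSO values rose from 13.27 and 13.20 at 1 h to 13.81 and 13.83 at 6 h. MS4A1 stood at 0.05, -0.27 and -0.59 (-0.32 ± 0.06, adjusted p = 0.0043). RAG1 stood at 0.38, 0.60 and 0.97 (0.37 ± 0.07, adjusted p = 0.00542), and CXCR4 at 0.46, 0.61 and 0.80 (0.19 ± 0.04, adjusted p = 0.0083). In GIMAP6 the CSKi values stayed between 6.53 and 6.82 over the 3 times, while the DMSO values went from 6.30 and 5.82 at 1 h to 5.30 and 4.83 at 6 h. EGR2 stood at -2.61 at 1 h and at 0.58 at 6 h, 0.30 to 0.85 with 1 library of 6 h left out (6 h minus 1 h 3.18, adjusted p = 2.74e-08).

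Among the lists, ribosome biogenesis genes had a median of -0.020 at 1 h, -0.056 at 3 h and -0.166 at 6 h, with 2, 5 and 27 members fallen. The change from 3 to 6 h was lower in 5 of the 41 and higher in none. ATF4 and amino acid response genes had fallen in 21 of 33 at 3 h (median -0.203) and in 5 at 6 h, and 6 were higher and none lower in the test of the change. FOXO target and quiescence genes had 7, 21 and 18 members risen and 4, 4 and 2 fallen at 1, 3 and 6 h. Their change from 3 to 6 h was higher in 3 and lower in 1. Heat shock genes had fallen in none, 8 and 9 of 17.

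**Figure D4:**
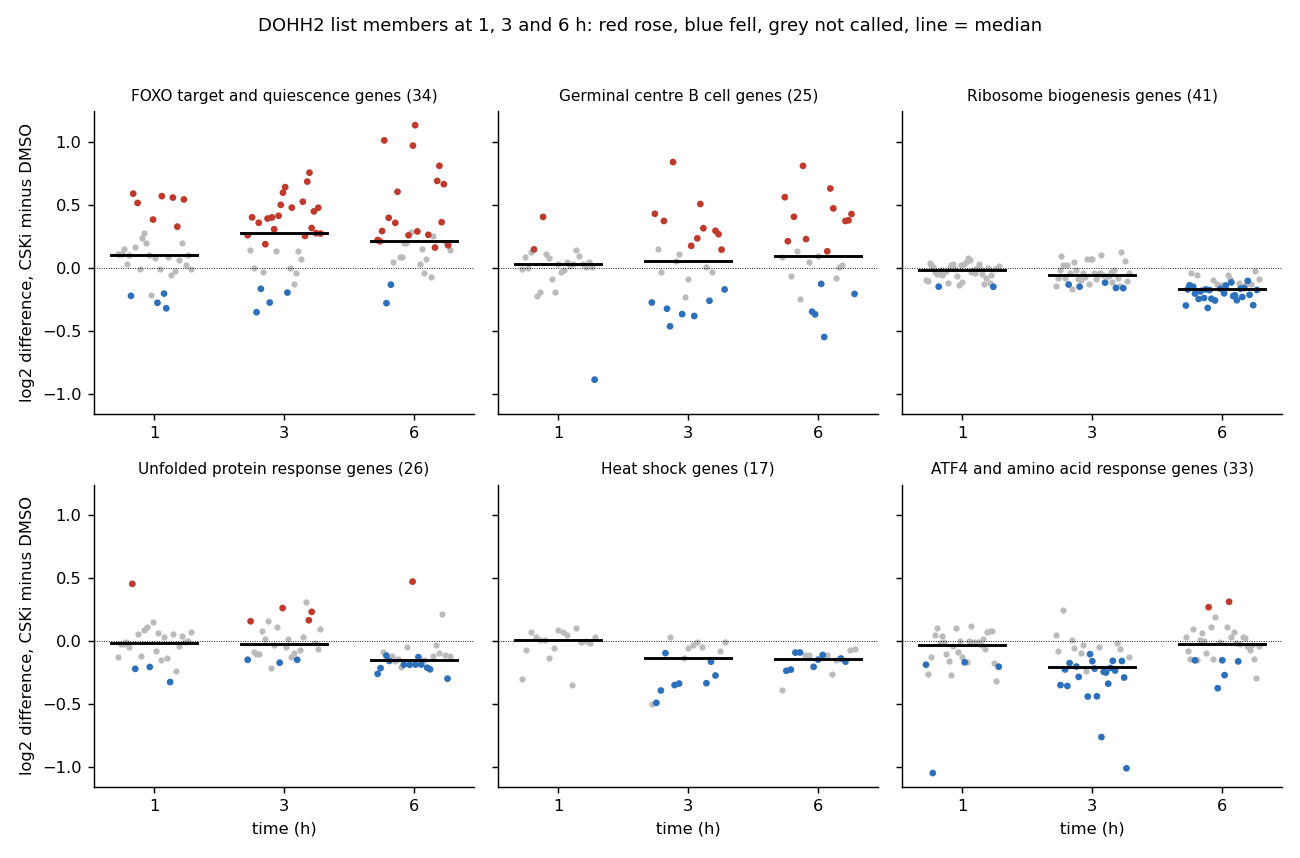
Log2 difference of CSKi minus DMSO in DOHH2 for each tested member of 6 gene lists at 1, 3 and 6 h (x axis), in red where it rose, blue where it fell and grey where not called, with a line at the median. The ribosome biogenesis median is lowest at 6 h (-0.166), and the ATF4 median is lowest at 3 h (-0.203).

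In TMD8, 1399 of the same 11515 features were called at 6 h (12.1%), 615 higher and 784 lower. Of the 829 genes that rose in DOHH2 146 rose in TMD8 (17.6%) and 59 fell there. Of the 802 that fell 256 fell in TMD8 (31.9%) and 37 rose there. The shares that went the opposite way, 59 of 829 and 37 of 802, lay near those over all features, 784 and 615 of 11515. Pearson's r across genes was 0.17, and 0.209 over the 10674 features with a mean of 5 or more in TMD8 as well. The difference between the lines passed the test in 797 genes (6.92%), 448 with a higher response in DOHH2 and 349 with a lower one, and in 255 with the 24 h libraries added. EGR2 had 9.19 and 9.11 in TMD8 DMSO and 6.52 and 6.58 with CSKi, so that it stood at -2.60 there and at 0.58 in DOHH2, 0.30 to 0.85 with 1 DOHH2 library of 6 h left out (difference 3.18 ± 0.30, adjusted p = 1.76e-07). CD69 stood at -1.75 in TMD8 and 0.59 in DOHH2 (2.34 ± 0.18), and LAIR1 at -1.78 and 0.53 (2.32 ± 0.23). TMCC2 was near 0 in TMD8 (-0.10) and at 1.96 in DOHH2 (2.05 ± 0.38). PTPN6 fell in both lines, by 1.22 in TMD8 and by 0.61 in DOHH2 on the log2 scale (0.61 ± 0.07, adjusted p = 1.06e-06). MS4A1 stood at -0.05 in TMD8 (-0.54 ± 0.05). CXCR4 rose in both lines, with 0.61 in TMD8, and the difference of 0.20 ± 0.08 was not called (adjusted p = 0.161).

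Several of the largest line differences rest on genes with few or no reads in TMD8. RAG2 and GIMAP6 were at 0 in all 4 TMD8 libraries at 6 h, so that no response was measurable there. GLYATL2 had 4.36 and 4.50 in TMD8 DMSO and 0.00 and 0.43 with CSKi. Of 29 FOXO target and quiescence genes with a mean of 5 or more in both lines, the response was higher in DOHH2 in 7 and lower in 1. Over the same kind of features it was higher in 437 and lower in 344 of 10674. Of the 41 ribosome biogenesis genes 36 fell in TMD8 (median -0.274), and the response was higher, that is less negative, in DOHH2 in 8 and lower in none. Among the 34 genes of cholesterol and fatty acid synthesis, 17 fell in TMD8, and of the 32 measured in both lines the response was higher in DOHH2 in 13 and lower in 1. Of 6 ERK feedback genes 5 fell in TMD8 and the same number had a higher response in DOHH2.

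**Figure D5:**
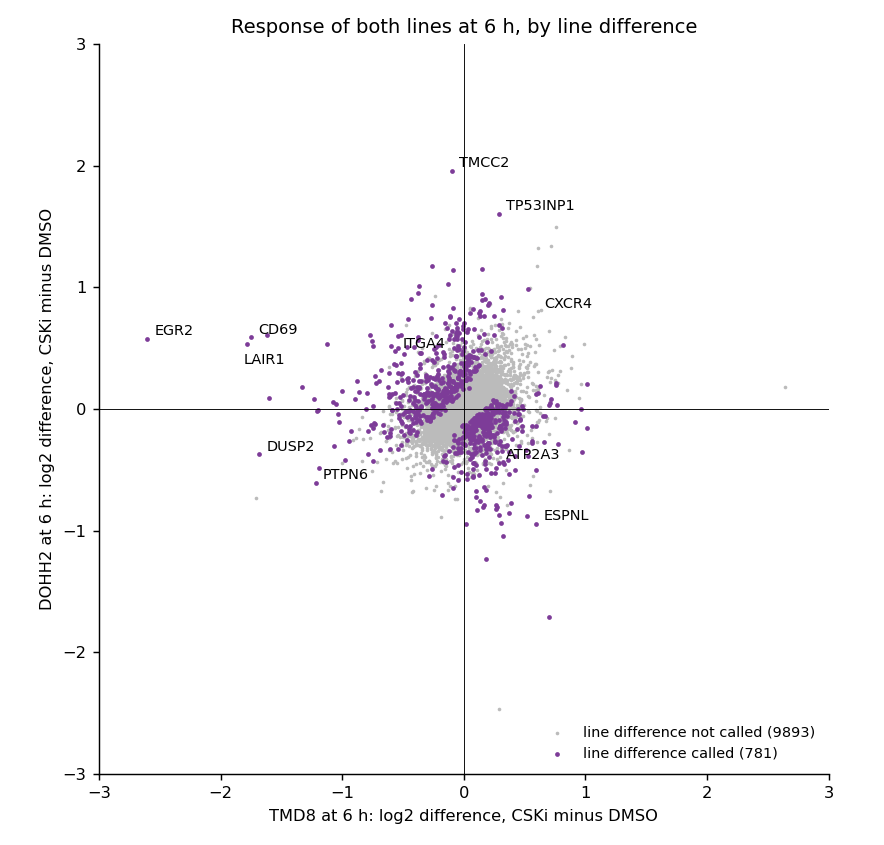
Log2 difference of CSKi minus DMSO at 6 h in TMD8 (x axis) and DOHH2 (y axis) for 10674 features with a mean of 5 or more in both lines, in purple for the 781 with a called difference between the lines. EGR2, CD69 and LAIR1 lie far left at small positive DOHH2 values, and TMCC2 and TP53INP1 lie high at small TMD8 values.

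Genes that rose and genes that fell also differed in their transcripts. The longest transcript in GENCODE v29 had a median length of 4546 bases among genes that rose, 3534 among those that fell and 3636 over all features, with 97.2, 99.0 and 94.3% of the genes matched. Its median GC content was 47.6% among genes that rose, 53.6% among those that fell and 48.2% over all features. Among the 53 genes that fell at least 1.5-fold it was 60.0%. The part of length or GC content in the differences was not tested. Protein-coding genes were 94.9% of those that rose and 97.9% of those that fell, and long noncoding RNAs 1.81% and 0.249%, against 91.6% and 1.9% over all features. The median level was 10.73 among genes that rose, 11.02 among those that fell and 9.87 over all features.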

How the data were processed

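The deposited table holds normalized values on a log2 scale, read here as another unit because no source used here gives the scaling factor of the normalization. The authors' counts came from HTSeq on hg19, per the submitters' processing notes. No source used here gives the aligner, the HTSeq version or the strand setting. Reads per gene were recovered from the deposited values for description and for 1 alternative. The total of mapped reads was left out of every test. Differences were fitted with limma 3.58.1 in R 4.3.3, a group-means model with a trend in the spread, and p-values were adjusted by Benjamini and Hochberg over 11515 features. The script was tested on simulated data. DOHH2 fits used the libraries of 1, 3 and 6 h, because the 24 h duplicates correlate less and their labels may be crossed. Members and gene lists were chosen with earlier results of these data known. The text names the 12 largest called differences each way at 6 h without overlap, up to 5 called members of each list by p, CSK and the Src family kinases, and up to 6 genes each way per change between times or lines. Genes outside this rule are named for a promoter match or after their values were seen, and some genes that the rule names are not reported here. Alternatives covered the filter, the scaling, the spread, the replicate block, voom, the 24 h libraries and each library left out.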

Additional observations from a re-analysis of the deposited data

Results flagged for a closer look

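Each result here is a difference between 2 responses that passed its own test (limma, Benjamini-Hochberg adjusted p under 0.05). The response at 6 h differed from that at 3 h in 260 genes and from that at 1 h in 711, and the responses of DOHH2 and TMD8 at 6 h differed in 797.

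Between 6 h and 3 h the response was higher at 6 h by 1.40 on the log2 scale in TMEM52B, 1.38 in GARNL3, 1.10 in FAM222A, 0.96 in PITPNM2, 0.80 in GLYATL2 and 0.75 in PLEKHH3. It was lower at 6 h in PKD1P1 (-1.77), BHLHE40 (-1.07), KCNN3 (-0.83), ESPNL (-0.76), LILRB2 (-0.76) and SIK1 (-0.61). Of the genes given here with a higher response at 6 h, only TMEM52B was called at 6 h itself.

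Between the lines the response was higher in DOHH2 by 4.43 in GLYATL2, 3.18 in EGR2, 2.34 in CD69, 2.32 in LAIR1, 2.23 in LINC02909 and 2.05 in TMCC2. It was lower in DOHH2 in PKD1P1 (-2.41), PRAMENP (-2.31), SARDH (-2.27), FOXO6 (-1.95), FOXO3B (-1.62) and ESPNL (-1.54). Mean log2 values over the 4 TMD8 libraries at 6 h were low in GLYATL2 (2.32), PRAMENP (1.23), SARDH (1.27), FOXO3B (1.04) and FOXO6 (3.27), so that these differences rest on few reads in TMD8.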

How the results depend on the processing

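None of the 156 genes called at 6 h under the naming rule changed direction under the alternatives run; SRC, which was not called, went from -0.06 to between -0.25 and 0.14 with 1 library left out. Of the 156, 112 kept the call without each of the 4 libraries, 44 lost it without at least 1, 37 lost it under at least 1 other setting, and 27 kept it with the 24 h libraries added. Across filters, scalings and left-out libraries, 55 of 339 list medians compared moved by at least the spread of that median between duplicates. The 1631 genes called at 6 h became 965 at an adjusted p under 0.01, 994 without the trend in the spread, 106 with the 24 h libraries and 1005 to 1266 with 1 library left out. The 260 genes whose response changed from 3 to 6 h became 67 with no filter on low values, 11 without the trend, 2 with the 24 h libraries and 116 to 333 with 1 library left out. The 711 from 1 to 6 h became 312, 255, 16 and 381 to 860 under the same settings. The 797 that differed between the lines became 255 with the 24 h libraries and 583 to 699 with 1 library left out, and 803 over the 10674 features also measured in TMD8, an alternative chosen after seeing the data, as was counting list members only where both lines measure them. The cause was not tested, beyond more features being tested without the filter and fewer libraries entering. Same-numbered libraries at 1, 3 and 6 h deviated together with r = 0.034, 0.028 and 0.092 over features. These low values cannot settle whether the numbers pair the libraries, and the labels give only a replicate number. With the replicate block, as 1 number over all libraries or within each line and time, 2016 or 1984 genes were called at 6 h, 469 or 488 from 3 to 6 h, 1033 or 1023 from 1 to 6 h and 823 or 916 between the lines. Calls in genes near the filter rest on about 26.0 reads per library.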
